A study of Mus musculus with 3 samples.

Results

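Transcripts of the MHC class I pathway were examined in activated mouse B cells treated with vehicle or with 1 of 2 inhibitors of transcription control. The genes were chosen by name and function: the class I heavy chains H2-K1 and H2-D1, the light chain B2m, the peptide transporter subunits Tap1 and Tap2, tapasin (Tapbp), the immunoproteasome subunits Psmb8, Psmb9 and Psmb10, and the class I transactivator Nlrc5. Of these 10 genes, 9 had a row among the 33700 genes of the tables. Psmb9 had no row under its symbol or identifier in the tables used here and was not analysed here.

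The cells were CD43-negative B cells from the spleen of C57BL/6 mice, kept for 3 days in medium with lipopolysaccharide, a bacterial activator of B cells, and interleukin-4, a T cell cytokine. All 3 cultures had both stimuli. What was added for those 3 days differed: DMSO, the vehicle, in 1 culture, 80 nM JQ1+ in another and 30 nM flavopiridol in the last. The culture label names DMSO for all 3 samples, and the groups follow the treatment label. JQ1 displaces BET bromodomain proteins from acetylated chromatin, and flavopiridol inhibits cyclin-dependent kinases including Cdk9, which releases paused RNA polymerase. The compounds are unrelated in structure and their doses differ. The labels do not say how old the mice were or whether the cultures shared mice.

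MHC class I molecules display peptides from inside the cell to CD8 T cells. Peptides are cut by the proteasome, in which the inducible subunits Psmb8, Psmb9 and Psmb10 can take the places of the constitutive Psmb5, Psmb6 and Psmb7. They are carried into the endoplasmic reticulum by the Tap1 and Tap2 transporter and loaded, with the help of tapasin, onto a heavy chain paired with B2m. Lymphocytes express this pathway at a high level without infection. Interferons raise it through STAT and IRF factors, NF-kB acts at heavy chain promoters, and Nlrc5 acts through a conserved promoter module made of W/S, X1, X2 and Y boxes.

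The promoters of the heavy and light chain genes are shown because those 3 genes were lower with both compounds and are known carriers of that module. RefSeq promoter sequences of build GRCm38.p6 covered 8 of the 10 genes, in windows of 300 bases that run from 250 before to 50 after the annotated start. The deposited tables were made on another build, mm9, and hold no coordinates. The stretches lie at chr17:34000348-34000467 on the minus strand for H2-K1, chr17:35262914-35263033 on the plus strand for H2-D1 and chr2:122147530-122147649 on the plus strand for B2m. Each has 120 bases, all upstream of the annotated start, and the 3 are aligned on the X2 half-site. Capitals mark matches to the motifs searched.
H2-K1: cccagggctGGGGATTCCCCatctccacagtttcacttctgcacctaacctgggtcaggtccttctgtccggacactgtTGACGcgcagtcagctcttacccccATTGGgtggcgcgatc
H2-D1: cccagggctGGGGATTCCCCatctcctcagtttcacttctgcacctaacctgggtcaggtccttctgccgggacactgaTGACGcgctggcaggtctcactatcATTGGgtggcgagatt
B2m: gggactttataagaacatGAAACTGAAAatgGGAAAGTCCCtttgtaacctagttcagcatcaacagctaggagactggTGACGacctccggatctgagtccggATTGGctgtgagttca

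The motifs were searched on both strands: GAAANNGAAA, the core of the interferon-stimulated response element; TTCNNNGAA, the gamma-activated site; GGGANTNNCC, a kappaB form; TGACG, an X2 half-site; and CCAAT, the Y box. Only these forms were searched, so a variant of a motif is not marked and its absence is not shown. H2-K1 and H2-D1 carried the same kappaB run, which matches on both strands with an overlap, and 107 of their 120 bases were identical (89.2%). B2m carried GAAACTGAAA and, on the other strand, GGGACTTTCC, 3 bases apart. In all 3 genes TGACG was followed by a reversed Y box (ATTGG) whose start lay 25 bases on. This spacing was noticed in these sequences and then counted: 31 of 32851 promoter windows of this length held it (0.0944%). Single motifs were more common, at 3.44% of windows for the response element core, 8.30% for the gamma-activated site, 4.16% for the kappaB form, 20.8% for TGACG and 37.4% for CCAAT.

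Tap1 and Psmb9 are transcribed in opposite directions from RefSeq starts with 225 bases between them. The stretch is shown because Tap1 was one of the genes that fell with JQ1+. It lies at chr17:34187331-34187555 in GRCm38.p6 and is written on the Tap1 strand.
Tap1: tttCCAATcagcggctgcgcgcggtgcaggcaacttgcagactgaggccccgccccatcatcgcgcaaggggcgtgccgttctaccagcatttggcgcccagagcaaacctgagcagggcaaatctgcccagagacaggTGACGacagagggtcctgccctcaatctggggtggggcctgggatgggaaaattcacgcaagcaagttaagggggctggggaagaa

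The Tap1 stretch held a Y box and an X2 half-site but neither the response element core nor the kappaB form. In the Psmb8 window the gamma-activated site matched once, as TTCCCAGAA at 97 bases before the start, the Tapbp window held Y boxes alone, and the Psmb10 window matched none of the 5 motifs. A match describes letters only, and no binding was measured.

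There was 1 library per treatment, so the spread between cultures is unknown and no p-values were computed. RPKM, reads scaled to gene length and library total, allows levels to be compared between genes. Changes are log2((RPKM + 1)/(RPKM + 1)), and a gene is said to have fallen or risen past a size of 1, which is 2-fold. Plain RPKM ratios carry 95% counting intervals, which do not cover differences between cultures. In total RNA from a whole culture, fewer cells that express a gene and less of its RNA per cell cannot be told apart. Counts summed to between 50184508 and 59786847 per library. Of the B cell markers all 8 had a level of at least 1 RPKM in some library, and the markers of other cell types are given after the results.

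With JQ1+, all 9 measured genes were lower than in DMSO, and 4 of them fell: Nlrc5, Tap1, Psmb10 and B2m. None rose. Of the 14790 genes whose mean reached 1 RPKM, 59.7% were lower than in DMSO, 5.29% fell and 1.98% rose. The median change of the 9 genes was -0.83, beside -0.08 for all genes. With flavopiridol, 8 of the 9 were lower than in DMSO but none passed 2-fold in either direction, where 2.88% of all genes fell and 3.55% rose. The median was -0.50, beside 0.13 for all genes, of which 36.2% were lower than in DMSO. Nlrc5 (-0.98) and H2-K1 (-0.93) lay just inside the 2-fold limit, and both passed it when libraries were scaled by the median of ratios. Such scaling also changed the split of all called genes, of which 62.4% in place of 44.8% were lower with flavopiridol. In counts scaled to their sum it was 55.6%, and over protein-coding genes rescaled to their own sum 54.9%. Both comparisons share the DMSO library.

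**Figure D1:**
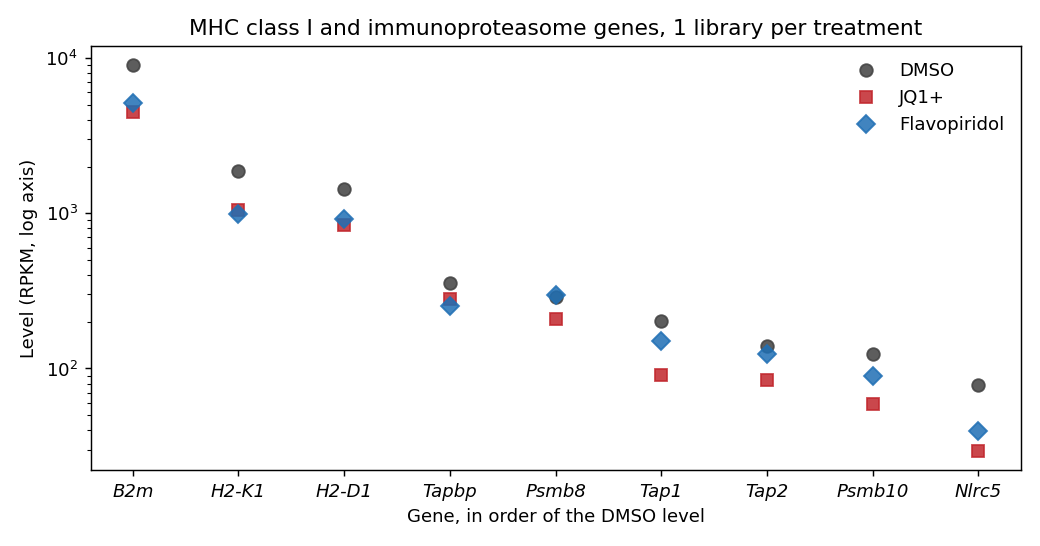
Levels of the 9 measured genes in RPKM on a log axis, with 1 point for each library (DMSO, JQ1+ and flavopiridol) and genes in order of their DMSO level. B2m is highest in every library and Nlrc5 lowest. The JQ1+ point is below the DMSO point for all 9 genes, and for Psmb8 the DMSO and flavopiridol points nearly coincide at 290.0 and 298.9 RPKM.

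Levels differed widely within the vehicle culture. B2m, at 8989 RPKM, ranked 13 among the 14790 genes, H2-K1 ranked 117 and H2-D1 161. Tapbp, Psmb8, Tap1, Tap2 and Psmb10 followed, between 358 and 125 RPKM, and Nlrc5 was lowest at 78.5 RPKM with rank 2635. B2m was still at rank 35 with JQ1+ and 31 with flavopiridol, whereas Nlrc5 stood at rank 5569 and 4986. The order of the genes was nearly kept. Psmb8 stood above Tapbp with flavopiridol and below it in the other libraries. Tap1 and Tap2 differed clearly in DMSO, while with JQ1+ their ratio of 1.06 had an interval from 1.008 to 1.125.

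Nlrc5, the class I transactivator, stood at 78.5 RPKM in DMSO, 29.4 in JQ1+ and 39.3 in flavopiridol. It was highest in the vehicle library, on which both changes against DMSO rest. It fell 2.67-fold with JQ1+ (interval 2.51 to 2.83), the largest change among the 9 genes, and only 2.77% of all genes had a change as low or lower. It was 1.998-fold lower with flavopiridol (interval 1.89 to 2.11). Its level in JQ1+ was 0.749 times that in flavopiridol (interval 0.698 to 0.804). Ciita, the related transactivator of class II genes, stood at 130 RPKM in DMSO, 200 in JQ1+ and 170 in flavopiridol, higher with both compounds and within 2-fold. The Nlrc5 to Ciita ratio was 0.605 in DMSO (interval 0.581 to 0.629), 0.147 in JQ1+ (interval 0.139 to 0.156) and 0.231 in flavopiridol (interval 0.219 to 0.244). A ratio within a library does not depend on how libraries are scaled, and it shows that these 2 transcripts changed unequally, not which one moved.

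B2m, the light chain shared by all classical class I molecules, stood at 8989 RPKM in DMSO, 4483 in JQ1+ and 5166 in flavopiridol. It was 2.005-fold lower with JQ1+ (interval 1.98 to 2.03), a log2 change of -1.003 that only just passed the limit and did not pass it under 3 other scalings. The flavopiridol level was 1.74-fold lower (interval 1.71 to 1.77). H2-K1 stood at 1878 RPKM in DMSO, 1055 in JQ1+ and 986 in flavopiridol, and H2-D1 at 1443, 845 and 921. Both heavy chains were lower with both compounds, within 2-fold. H2-K1 was 1.78-fold lower with JQ1+ (interval 1.75 to 1.81) and 1.91-fold lower with flavopiridol (interval 1.87 to 1.94). For H2-D1 the values were 1.71 (interval 1.67 to 1.74) and 1.57 (interval 1.53 to 1.60).

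The 3 chains did not keep fixed proportions. B2m RPKM was 4.79 times that of H2-K1 in DMSO, 4.25 times in JQ1+ and 5.24 times in flavopiridol, and the intervals of these ratios did not overlap. B2m to H2-D1 was 6.23 in DMSO, 5.31 in JQ1+ and 5.61 in flavopiridol. With flavopiridol B2m was thus higher against H2-K1 and lower against H2-D1 than in DMSO. H2-K1 to H2-D1 was 1.30 in DMSO (interval 1.28 to 1.32), 1.25 in JQ1+ (interval 1.22 to 1.28) and 1.07 in flavopiridol (interval 1.05 to 1.09). Heavy chain reads can be shared: in GENCODE M21 transcripts, 8.79% of the 50-base stretches of H2-K1 and 14.3% of those of H2-D1 occurred exactly in another gene. For B2m, Psmb10 and Nlrc5 that share was 0%. The sources used here do not say how the authors treated such reads.

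Tap1 stood at 203 RPKM in DMSO, 90.3 in JQ1+ and 151 in flavopiridol, and Tap2, its partner in the transporter, at 139, 84.8 and 124. For both genes DMSO was highest, flavopiridol lay between, and JQ1+ was lowest. Tap1 fell 2.24-fold with JQ1+ (interval 2.16 to 2.34) and was 1.35-fold lower with flavopiridol (interval 1.30 to 1.39). Tap2 was 1.64-fold lower with JQ1+ (interval 1.56 to 1.73) and 1.13-fold lower with flavopiridol (interval 1.07 to 1.18). Tap1 to Tap2 was 1.45 in DMSO, 1.06 in JQ1+ and 1.22 in flavopiridol. Tapbp, which bridges the transporter and the empty heavy chain, stood at 358, 280 and 254 RPKM in the same order of libraries. It was the least reduced of the 9 with JQ1+, at 1.28-fold lower (interval 1.24 to 1.32), and was 1.41-fold lower with flavopiridol (interval 1.36 to 1.46).

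Among the immunoproteasome subunits, Psmb8, the inducible counterpart of Psmb5, stood at 290.0 RPKM in DMSO, 207 in JQ1+ and 298.9 in flavopiridol. It was 1.398-fold lower with JQ1+ (interval 1.34 to 1.46), and with flavopiridol it was 1.03 times its DMSO level (interval 0.992 to 1.07). Under median of ratios scaling its flavopiridol change turned from 0.04 to -0.13. Psmb10, the inducible counterpart of Psmb7, stood at 125 RPKM in DMSO, 59.1 in JQ1+ and 89.1 in flavopiridol. It fell 2.11-fold with JQ1+ (interval 1.90 to 2.35) and was 1.398-fold lower with flavopiridol (interval 1.27 to 1.54). For Psmb10 the JQ1+ change was -0.96 under median of ratios scaling and -0.99 in counts scaled to their sum, inside the 2-fold limit.

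Psmb8 and Psmb10 differed in how they stood against the subunits they replace. Psmb8 to Psmb5 was 2.95 in DMSO (interval 2.73 to 3.20), 2.64 in JQ1+ (interval 2.40 to 2.91) and 2.85 in flavopiridol (interval 2.62 to 3.11), and all 3 intervals overlapped. Psmb10 to Psmb7 was 0.455 in DMSO (interval 0.424 to 0.488), 0.234 in JQ1+ (interval 0.212 to 0.258) and 0.238 in flavopiridol (interval 0.218 to 0.259). In flavopiridol the denominator was also higher: Psmb7 stood at 274 RPKM in DMSO, 253 in JQ1+ and 375 in flavopiridol.

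**Figure D2:**
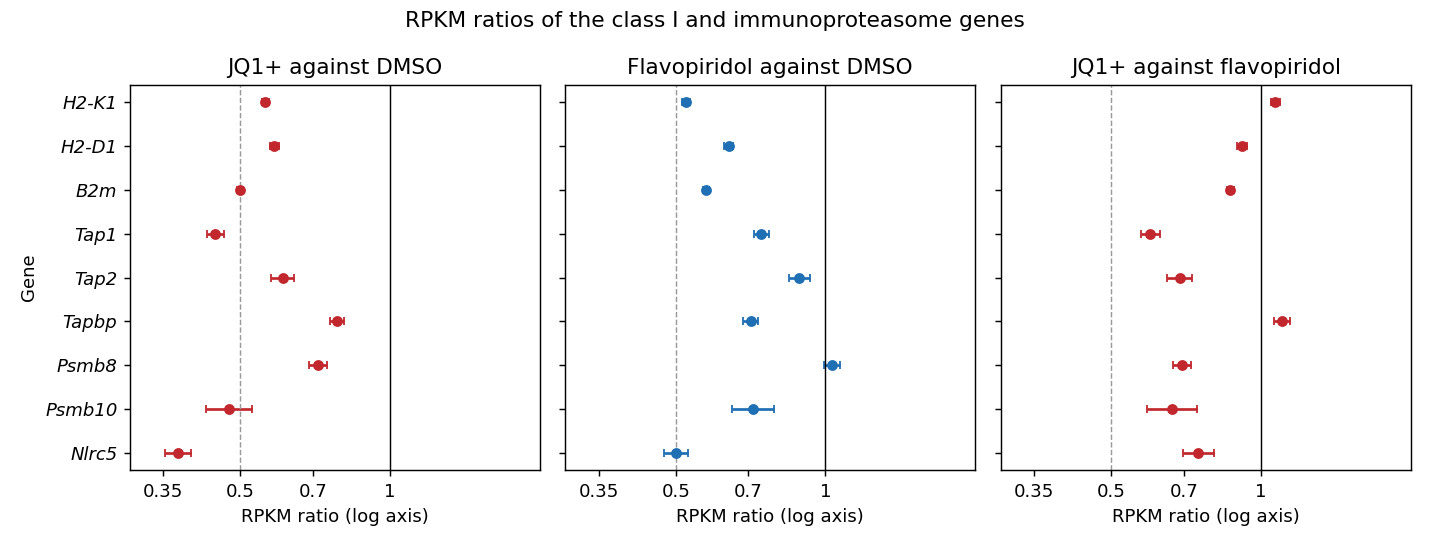
Plain RPKM ratios of the 9 genes on a log axis for JQ1+ against DMSO, flavopiridol against DMSO and JQ1+ against flavopiridol. Points are 1 library over 1 library, bars are 95% counting intervals, the solid line is a ratio of 1 and the dashed line 0.5. With JQ1+ all points lie left of 1, from 0.375 for Nlrc5 to 0.782 for Tapbp, and with flavopiridol they run from 0.501 for Nlrc5 to 1.03 for Psmb8.

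Genes on the opposite strand overlap some of these genes in GENCODE M21, and the sources used here do not say whether the counting used strand. The antisense gene Gm20496 shares 498 exon bases with Psmb8 (14.7% of its exon bases) and 165 with Tap2, and stood at 323 RPKM in DMSO, 218 in JQ1+ and 309 in flavopiridol. Gm15821 shares 533 exon bases with Tap2 (14.1%) and stood at 108, 67.1 and 95.6 RPKM. Reads in the shared bases cannot be assigned to Psmb8 or Tap2 with certainty. Psmb9 exons share 212 bases with Tap1 in this annotation (3.87% of Tap1 exon bases). At least 1 of these genes therefore begins upstream of the RefSeq start used for the Tap1 stretch above. Gm19412, which had no row in the tables used here, shares 904 exon bases with Tapbp (24.9%).

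Set side by side, no gene of the 9 differed 2-fold between JQ1+ and flavopiridol, where 2.06% of all genes were higher in JQ1+ and 6.87% lower. The median was -0.40, beside -0.21 for all genes. The JQ1+ level of Tap1 was 1.67-fold below that with flavopiridol (interval 1.60 to 1.74), Psmb10 1.51-fold (interval 1.34 to 1.70), Tap2 1.46-fold (interval 1.38 to 1.54) and Psmb8 1.44-fold (interval 1.38 to 1.503). All 4 genes act in peptide supply. Lower levels in JQ1+ than in flavopiridol were not particular to them. The constitutive Psmb5, Psmb6 and Psmb7, 11 other subunits of the proteasome core and 5 assembly factors were all lower too. Their medians were -0.41, -0.30 and -0.82, and 69.9% of all genes were below 0. Of the antigen-presenting chains, H2-K1 was 1.07 times as high in JQ1+ (interval 1.05 to 1.09), H2-D1 0.917 times (interval 0.896 to 0.939) and B2m 0.868 times (interval 0.853 to 0.883). Tapbp was 1.10 times as high in JQ1+ (interval 1.06 to 1.15). This comparison depended on scaling. By the median of ratios 51.9% in place of 77.0% of all called genes were lower in JQ1+, the median of the 9 was -0.14 and that of all genes 0.04, and H2-D1 and B2m turned to 0.15 and 0.07. H2-K1 was then at 0.37, farther from 0 than Tap2 at -0.26, Psmb8 at -0.25 and Psmb10 at -0.31.

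Other class I and class I-like genes, of which 16 of 33 reached a mean of 1 RPKM, were lower as well. With JQ1+ 15 of the 16 were below DMSO and 6 fell, with a median of -0.89. Of all genes 59.7% were below DMSO with JQ1+ and 5.29% fell. With flavopiridol 14 of the 16 were below DMSO, 1 fell and 1 rose, with a median of -0.76. Of all genes 2.88% fell and 3.55% rose, so 1 of 16 each way is near those shares. By the median of ratios 6 of the 16 fell, beside 595 of 14765 genes. H2-M5 was the gene that fell with both compounds, from 22.3 RPKM in DMSO to 2.68 in JQ1+, 8.31-fold lower (interval 6.16 to 11.4), and to 2.59 in flavopiridol, 8.62-fold lower (interval 6.28 to 12.1).

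The Qa-2 genes H2-Q7 and H2-Q6, whose products are class I molecules that are not highly variable, were among the larger changes with JQ1+. H2-Q7 stood at 182 RPKM in DMSO, 34.4 in JQ1+ and 96.9 in flavopiridol, and fell 5.27-fold with JQ1+ (interval 4.93 to 5.65). H2-Q6 stood at 270 RPKM in DMSO, 64.9 in JQ1+ and 160 in flavopiridol, and fell 4.16-fold with JQ1+ (interval 3.87 to 4.47). Both were also lower in JQ1+ than in flavopiridol past 2-fold, by log2 changes of -1.47 and -1.29. The H2-Q7 to H2-K1 ratio was 0.0967 in DMSO, 0.0327 in JQ1+ and 0.0983 in flavopiridol. H2-Q5 (-1.80), H2-T10 (-1.35) and H2-T22 (-1.14) completed the genes that fell with JQ1+. H2-Q and H2-T genes are close copies of each other, and reads may have been assigned to the wrong copy.

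H2-T23, which encodes the Qa-1 molecule read by natural killer receptors, stood at 266 RPKM in DMSO, 162 in JQ1+ and 143 in flavopiridol, within 2-fold. H2-M3, which presents formylated peptides, stood at 76.7, 51.4 and 85.5 RPKM and was not lower with flavopiridol. H2-M10.2 was the gene counted as higher with flavopiridol, on counts of 10 in DMSO, 8 in JQ1+ and 46 in flavopiridol. Its plain ratio of flavopiridol to DMSO was 5.64 with an interval from 1.74 to 25.7.

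Of 17 peptide loading and trimming genes outside the set, none fell or rose past 2-fold with either compound. That is near the shares of all genes, of which 5.29% fell and 1.98% rose with JQ1+. With flavopiridol the shares were 2.88% and 3.55%. With JQ1+ 6 of the 17 were below DMSO and with flavopiridol 2. Their medians were 0.13 with JQ1+ and 0.34 with flavopiridol, beside -0.08 and 0.13 for all genes. By the median of ratios 4 were below DMSO with JQ1+ and 6 with flavopiridol. The medians were then 0.24 and 0.16, beside 0.01 and -0.03 for all genes. The chaperone calreticulin, Calr, stood at 1856 RPKM in DMSO, 2541 in JQ1+ and 2341 in flavopiridol, and Pdia3, the oxidoreductase of the loading complex, at 467, 621 and 664. Erap1, which trims peptides in the endoplasmic reticulum, stood at 102 RPKM in DMSO, 60.4 in JQ1+ and 106 in flavopiridol. The tapasin relative Tapbpl stood at 55.4, 37.0 and 41.8 RPKM. The aminopeptidase Lap3 was the 1 gene of the 17 past 2-fold between the compounds, where 6.87% of all genes were lower in JQ1+. It was 2.04-fold lower in JQ1+ (interval 1.89 to 2.20), a difference inside the limit by the median of ratios.

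Among other proteasome genes, none of the 3 constitutive catalytic subunits and none of 11 other subunits of the 20S core passed 2-fold with either compound. Lists this short are near the shares of all genes in that respect. Of all genes 5.29% fell and 1.98% rose with JQ1+, and 2.88% fell and 3.55% rose with flavopiridol. The medians of the 2 lists were -0.12 and -0.10 with JQ1+, and 0.09 and 0.26 with flavopiridol. By the median of ratios the median of the catalytic subunits was -0.01 with JQ1+ and -0.08 with flavopiridol, and that of the other core subunits 0.00 and 0.09. The interferon-inducible activator subunit Psme1 stood at 358 RPKM in DMSO, 208 in JQ1+ and 253 in flavopiridol, and its partner Psme2 at 35.7, 21.9 and 28.1. Both were lower with each compound, within 2-fold. Of the activators that are not part of this pair, Psme3 stood at 194, 153 and 230 RPKM, lower with JQ1+ and higher with flavopiridol, within 2-fold. Psme4 stood at 67.5, 76.4 and 72.6 RPKM. Of 5 assembly factors none passed 2-fold, which is also near the shares of all genes. Pomp stood at 413, 424 and 552 RPKM.

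**Figure D3:**
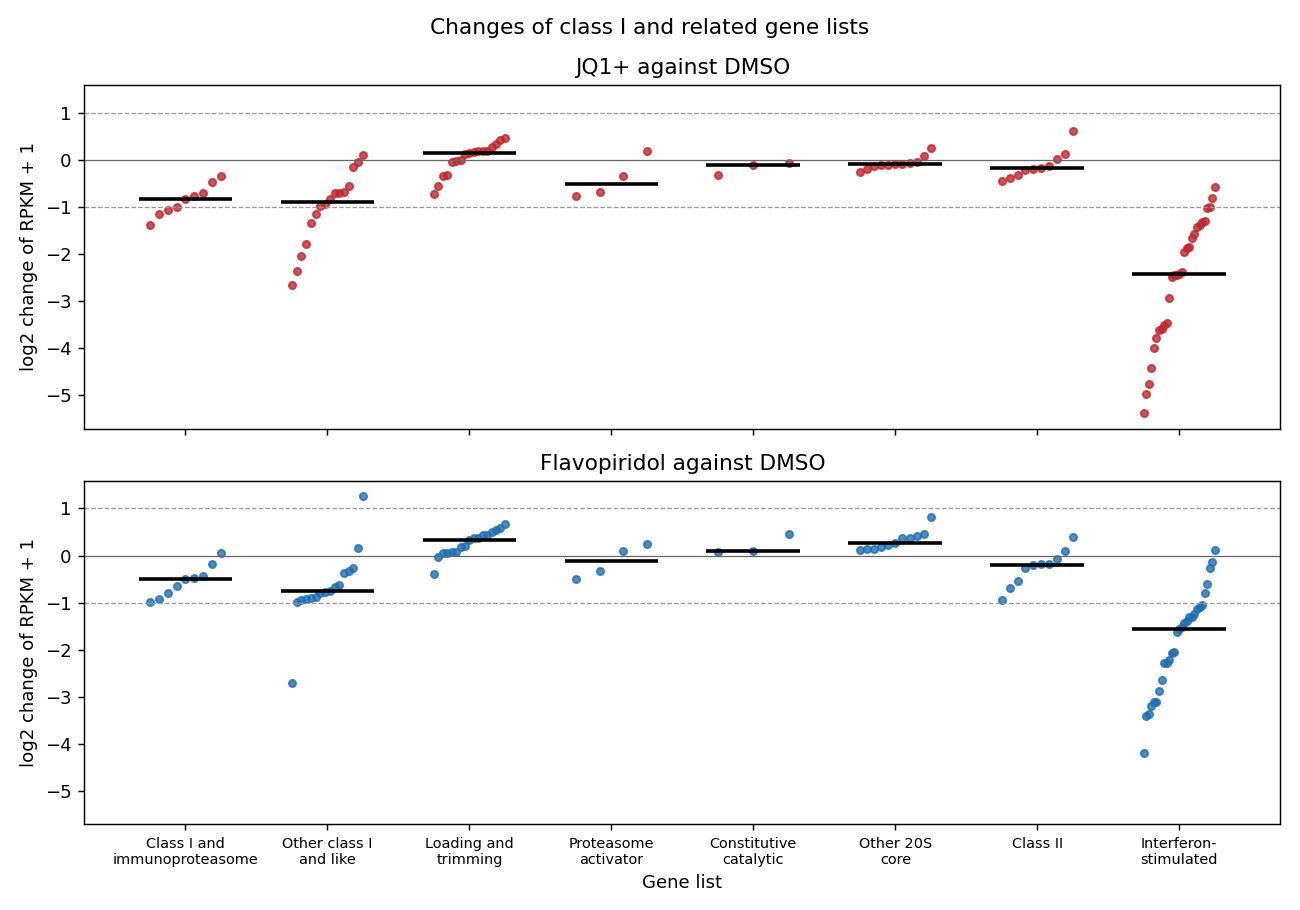
Changes of 8 gene lists on the log2(RPKM + 1) scale, for JQ1+ against DMSO (top) and flavopiridol against DMSO (bottom). Each point is a gene whose mean reached 1 RPKM, in order of its change within the list, black bars are list medians and dashed lines the 2-fold limits. The class I and immunoproteasome medians lie at -0.83 and -0.50, the interferon-stimulated medians at -2.43 and -1.56.

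Class II genes, which the same cells express at a high level, gave a comparison within antigen presentation. None of 10 passed 2-fold with either compound. Among all genes 5.29% fell and 1.98% rose with JQ1+, and 2.88% fell and 3.55% rose with flavopiridol. In a list this short, none is near those shares. The class II medians were -0.18 with JQ1+ and -0.20 with flavopiridol, beside -0.08 and 0.13 for all genes. By the median of ratios 1 of the 10, H2-Oa, fell with flavopiridol. The class II chain H2-Ab1 stood at 2687 RPKM in DMSO, 2344 in JQ1+ and 2250 in flavopiridol. H2-K1 to H2-Ab1 was 0.699 in DMSO (interval 0.689 to 0.710), 0.450 in JQ1+ (interval 0.442 to 0.459) and 0.438 in flavopiridol (interval 0.429 to 0.447). The class I chain was thus lower against the class II chain in both treated libraries, whose intervals overlapped.

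**Figure D4:**
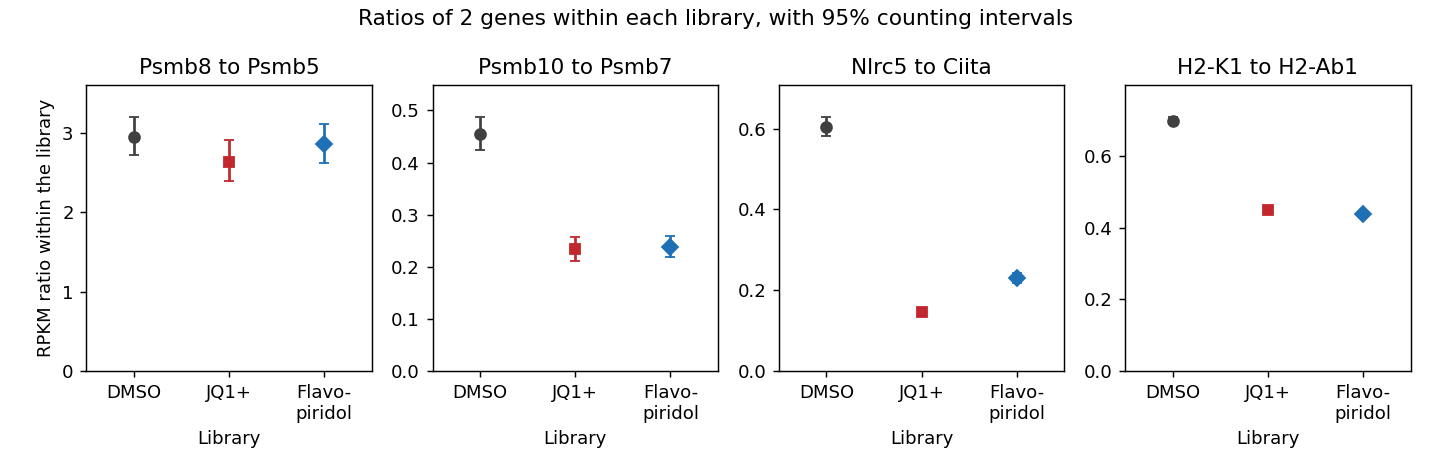
Ratios of RPKM between 2 genes of the same library, with 1 point per library and 95% counting intervals; each axis starts at 0. Psmb8 to Psmb5 has overlapping intervals in all 3 libraries. Psmb10 to Psmb7, Nlrc5 to Ciita and H2-K1 to H2-Ab1 are highest in DMSO, at 0.455, 0.605 and 0.699.

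Regulators of class I transcription were mostly within 2-fold among the 29 listed genes, as were most of all genes. Irf7, Irf9 and Stat2, which act in the response to type I interferon, fell with both compounds. Irf7 stood at 120 RPKM in DMSO, 8.87 in JQ1+ and 13.0 in flavopiridol, and Irf9 at 59.5, 19.0 and 27.1. Both were highest in the vehicle library, on which their changes against DMSO rest. Stat2 went further down with flavopiridol, from 80.0 RPKM in DMSO to 39.3 in JQ1+ and 25.1 in flavopiridol. Its JQ1+ change of -1.01 lay at the limit.

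Irf1, an activator of Tap1, Psmb9 and heavy chain promoters, stood at 56.2 RPKM in DMSO, 47.8 in JQ1+ and 58.2 in flavopiridol. The NF-kB gene Nfkb1 stood at 696, 436 and 794 RPKM, lower with JQ1+ and not with flavopiridol, within 2-fold. Rfx5, a subunit of the complex that binds the X1 box, stood at 33.1, 29.1 and 33.8 RPKM. These are transcript levels, and the activity of the factors was not measured.

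Interferon-stimulated genes outside class I, 30 listed genes of which 29 reached a mean of 1 RPKM, changed by more than the class I set. Of these, 27 fell with JQ1+ (median -2.43), where 5.29% of all genes fell. With flavopiridol 24 fell (median -1.56), where 2.88% of all genes fell. This list overlaps the regulators above, Irf7 and Stat2 being in both, and its direction in these libraries was known before this comparison. The 9 class I and immunoproteasome changes with JQ1+ ran from -1.38 to -0.35, and the 29 interferon-stimulated ones from -5.38 to -0.57. Gbp2, an interferon-inducible GTPase, stood at 360 RPKM in DMSO, 65.2 in JQ1+ and 327 in flavopiridol, past 2-fold with JQ1+ and within it with flavopiridol.

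By distance over both changes against DMSO, the protein-coding genes nearest to Nlrc5 among 9315 with a mean of at least 5 RPKM were Daxx, Trim34a and Tmem184b. Daxx, a histone chaperone gene, stood at 112 RPKM in DMSO, 41.4 in JQ1+ and 55.9 in flavopiridol. Nearest to the median of the 9 genes were 2700081O15Rik, Tanc2, Pfkp, Gtf2ird2 and Anxa4. Pfkp, an enzyme of glycolysis, stood at 70.3, 39.2 and 49.1 RPKM. Likeness over 3 libraries rests on 2 values per gene.

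Markers of other cell types were looked at because a change in the mixture of cells could move with these genes. Summed RPKM of 7 dendritic cell markers was 90.0 in DMSO, 10.7 in JQ1+ and 35.1 in flavopiridol. This sum, like those of T cell and stromal markers below, had the same order of libraries as Nlrc5. Batf3 and Flt3 made up most of the dendritic sum, at 55.9 and 26.6 RPKM in DMSO, while Itgax, Clec9a and Siglech were under 1 RPKM in all 3 libraries. Of the 4 dendritic markers whose mean reached 1 RPKM, 4 were below DMSO with JQ1+ and 2 with flavopiridol. The sums over 9 T cell markers were 304, 190.0 and 217 RPKM, mostly Thy1, with Cd3e at 0.066 RPKM or less in each library. Those over 5 stromal markers were 22.8, 5.67 and 12.4, mostly Pecam1, and those over 10 myeloid markers 7.94, 7.51 and 14.1, with Emr1 at 0.922, 0.801 and 9.47. The sums over 6 cytotoxic markers were 3.27, 2.09 and 2.04, and over the 3 of 4 erythroid markers that had a row 0.609, 0.270 and 0.645. The 8 B cell markers summed to 4549, 5016 and 4227 RPKM. The part of other cells in the class I changes was not tested.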

How the data were processed

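RNA of 3 libraries, 1 per treatment, was measured after ribosomal RNA depletion of Trizol extracts, per the labels' protocols. The deposited tables give, per the file headers, whole-number counts of reads per gene and RPKM, scaled by the authors to gene length and a library total. The build was mm9, per the submitters' processing notes. For aligner, annotation, strand and reads with several matches, the tool or setting is not given in the sources used here.

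Tables were joined by Ensembl identifier. No member and no listed gene had its symbol on several rows, as 94 symbols did. Changes were log2((RPKM + 1)/(RPKM + 1)), called at 1 or more in size among genes whose mean reached 1 RPKM. The pseudocount understates changes of low genes. No count model was used, since 1 library per treatment gives no spread. Counts summed to 2.72 to 2.92 times the total behind the RPKM, found from GENCODE M21 exon lengths of genes with at least 500 counts, so a count need not be 1 fragment. Counts were divided by 2.83 for exact (Clopper-Pearson) 95% intervals of ratios, which cover counting error only. Ratios and intervals were tested on simulated data drawn with a known divisor, which does not check the divisor of 2.83. Between 43.7% and 46.2% of the genes used to find the library totals lay within 0.1% of a common value.

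Members and lists were chosen with earlier results of these data known. The rule for names took the members and the 5 and 3 genes of most similar change, and allowed listed genes past 2-fold and up to 4 others per list, of which not all are named. A listed gene is not reported here by name. Other genes named (Erap1, Tapbpl, H2-Oa, Irf1, Rfx5, the overlapping genes and single markers) were chosen after their values were seen. The 9 alternatives covered scaling, unit, pseudocounts of 0.1 and 5, filters, gene types, rows and the call rule. Python 3.11.15, scipy 1.17.1 and pandas 2.3.3 were used.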

Additional observations from a re-analysis of the deposited data

How the results depend on the processing

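No paired analysis was possible because each treatment has 1 library, and no library could be left out. Of the 9 alternatives, only the 3 other scalings could change a direction: median of ratios, counts scaled to their sum, and protein-coding genes rescaled. With JQ1+ the direction of all 9 genes was the same under these 3. Nlrc5 and Tap1 stayed past 2-fold under all 9 alternatives. The number that fell with JQ1+, 4 as reported, was 2 by the median of ratios, 2 in counts scaled to their sum and 3 among protein-coding genes rescaled to their own sum. The median of the 9 was then -0.73, -0.77 and -0.78. With flavopiridol 2, 1 and 2 genes fell under these scalings, in place of 0, and the median was -0.67, -0.54 and -0.61. Between the compounds the median was -0.14 by the median of ratios and -0.24 among protein-coding genes. The median of all genes moved from 0.13 to -0.03 with flavopiridol by the median of ratios, and from -0.08 to 0.01 with JQ1+. Counts scaled to their sum also change the unit to which the pseudocount of 1 is added, and the cause of each difference was not tested. In all, 243 values of single genes were recomputed, and only those under the 3 other scalings could change sign. Of the 243 values 5 did. They were Psmb8 with flavopiridol and H2-D1 between the compounds under both the median of ratios and the protein-coding rescaling. The last was B2m between the compounds under the median of ratios. The pseudocounts, filters, the sums over a symbol's entries and the rule that the interval leave out 1 changed no call of a gene of the set. Depth does not limit these genes, the least counted of which, Psmb10, had a count of 1415 in JQ1+, but it does limit class I-like genes near 0.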
